A study of Mus musculus with 24 samples.

Results

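Short-term hematopoietic stem cells (ST-HSC) of aged and young mice were compared across all genes, from 8 of the 24 bulk RNA-seq libraries of a study of blood stem and progenitor cells. The members were chosen by title alone: 4 libraries labelled old ST-HSC and 4 labelled young ST-HSC, and every change below is aged minus young. All mice were male C57BL/6, the aged ones 107 weeks old and the young ones 12 weeks old. The labels name no substrain, mutation or treatment in either group. Bone marrow enriched for CD117, the protein of the Kit gene, was sorted for cells that lack mature lineage markers, carry Sca1 and Kit, and lack both CD150 and CD48. The other libraries, 4 per age and population, are of long-term stem cells (LT-HSC), which carry CD150 and lack CD48, and of multipotent progenitors (MPP), which carry CD48 and lack CD150. The labels count 4 mice per age but tie no library to a mouse, so the p-values measure the spread between these libraries.

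ST-HSC stand between the long-lived, mostly resting LT-HSC and the cycling progenitors. They rebuild all blood lineages after transplantation, but only for a limited time, and in the steady state they feed much of blood production. With age the LT-HSC pool of mice grows, its cells engraft less well per cell, and output leans towards myeloid cells and platelets. A sorted population is defined by its surface gate, so it is a mixture of cells, and in such bulk samples fewer cells of a type and less RNA per cell cannot be told apart.

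The 8 libraries held between 7307151 and 12890638 counts each (median 8454149). The genes of the sort did not pass the test. Kit stood at 1562 ± 78.2 CPM (counts scaled by library size with TMM factors) in aged and 1441 ± 89.6 in young libraries (mean ± SD, n = 4). Ly6a, which encodes Sca1, was at 56.4 ± 13.8 and 60.6 ± 9.49 CPM. Slamf1, which encodes CD150, was at 0.732 ± 0.835 and 0.789 ± 0.507 CPM, and Cd48 at 14.4 ± 1.57 and 11.5 ± 3.09 CPM. Cd34 and Flt3, which rise as stem cells mature, were at 673 ± 22.4 against 667 ± 49.8 CPM and at 379 ± 31.2 against 391 ± 49 CPM. Of the 19 tested sort and stem cell surface genes Cd38, Cd53 and Thy1 rose and 2 fell, Emcn among them. Neither of the lower calls was made without aged library 1, and none of the 3 rose without aged libraries 2 and 4 together. Cd53, a tetraspanin of blood cells, was at 197, 212, 211 and 219 CPM in aged and 100.3, 105, 122 and 127 CPM in young libraries (log2 change 0.88). In a principal component analysis of these 8 libraries the first component, with 28.5% of the variance, held all aged libraries between -42.9 and -29.1 and all young libraries between 32.7 and 35.8. The second, with 18.8%, ran from -37.4 in aged library 4 to 61.6 in aged library 3, while the young libraries lay between -9.81 and 6.88. Markers of other cells were uneven among the libraries. Mature granulocyte markers held 0.169% of the counts of aged library 2, 0.0376% of aged library 3, 0.0124% of aged library 1 and 0.0328% of young library 4, and between 0.000221% and 0.00173% of the others. Monocyte and macrophage markers held 0.126% in aged library 4 and 0.0942% in aged library 2, against 0.0298% to 0.0428% in the other 6. B and plasma cell markers held 0.0372% in aged library 4 against at most 0.00317% elsewhere. T and NK cell markers held 0.0181% to 0.0245% in aged and 0.00912% to 0.0113% in young libraries. Most of these were counts of Nkg7, also a member of the granule gene list below, with 6596 over the aged and 2191 over the young libraries. Lck had 827 and 1012 counts and Ccl5 76 and 217. Cd4 had 553 and 111 counts, of which 500 were in aged library 4. Klrb1c had 87 and 49, Cd8a 20 and 0, and Prf1 19 and 1. Of the T cell receptor complex genes Cd3d had 13 and 10 counts, and Cd3e and Cd3g had 0. Dendritic cell markers held 0.0415% to 0.048% in aged and 0.0395% to 0.0515% in young libraries. Most were counts of Flt3, with 14221 over the aged and 14053 over the young libraries. Clec9a had 277 and 50 counts, Itgax 178 and 40, Bst2 1099 and 1105, and Ccr9 369 and 461. Endothelial and stromal markers held 0.035% to 0.0416% and 0.0247% to 0.0482%. Most were counts of Pecam1 (6246 and 4582) and Pdgfrb (6070 and 2559). Emcn had 459 and 759 counts, and Cxcl12 11 and 1366, of which 1364 were in young library 4. Mast cell, basophil and eosinophil markers held 0.0252% to 0.0278% in aged and 0.0194% to 0.026% in young libraries. Most were counts of Gata2, with 9456 over the aged and 7462 over the young libraries. Cpa3 had 472 and 121 counts and Mcpt8 51 and 2, and no member of that list had fewer counts over the aged libraries.

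Aged ST-HSC differed from young ST-HSC in 823 of 14205 tested genes (5.79%), of which 509 were higher (3.58%) and 314 lower (2.21%) with age. The shares of 3.58% and 2.21% are the background for every count of list members in ST-HSC below. A gene is said to rise, fall or pass when its adjusted p is under 0.05 in the quasi-likelihood test of edgeR, adjusted over all tested genes by the Benjamini-Hochberg method. Adjusted p-values below are of this kind unless another tool is named. The median log2 change of all tested genes was 0.00976, and the median size of the change among those that passed was 0.705. Changes of at least 2-fold were met by 271 genes (1.91%), 219 higher and 52 lower. In 699 of the 823 the 4 values of one age lay entirely above those of the other. Among all tested genes such separation occurred in 5.94% with aged above and 4.98% with young above. Genes named below for the largest change or smallest p had to show it, so their separation was set by the choice. Without young library 2 or 3 the count was 543 or 503, and without aged libraries 2 and 4 together, which held the most macrophage marker counts, it was 433, of which 362 were among the 823.

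**Figure D1:**
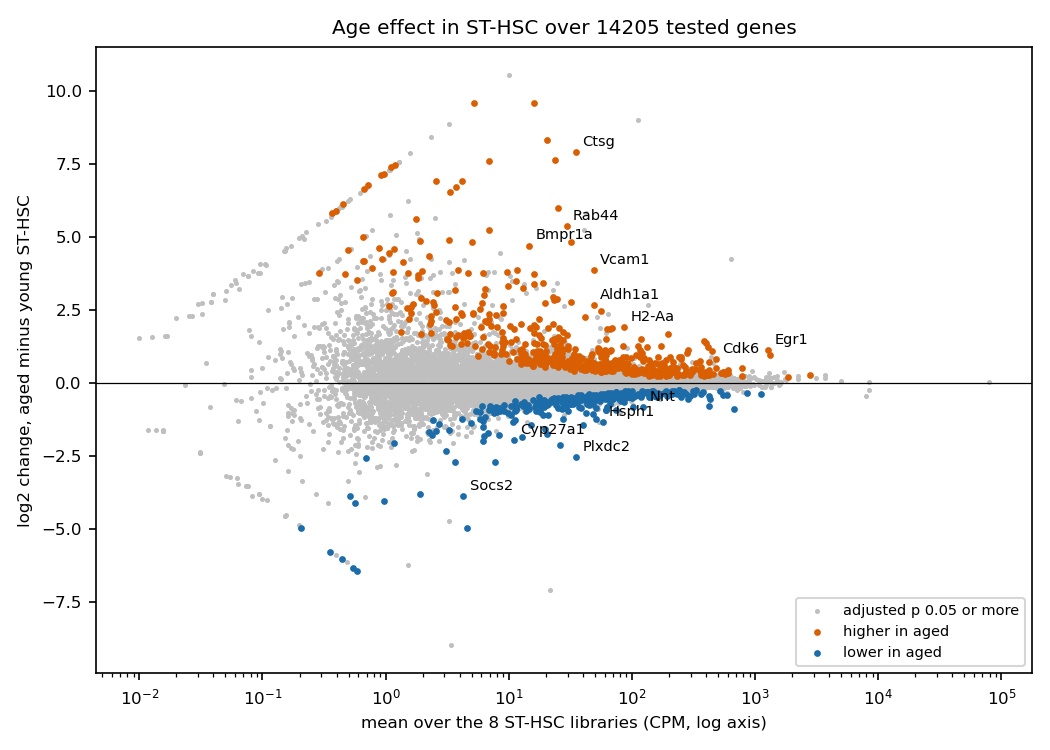
Log2 change with age (vertical axis) against the mean level over the 8 ST-HSC libraries in CPM (horizontal log axis), 1 point per tested gene, with the 509 genes that were higher in orange and the 314 that were lower in blue. Genes with few counts reach large fitted values in both directions, while Bmpr1a, Plxdc2, Cdk6 and Nnt pass at levels where most genes sit near 0.

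The lowest p of all 14205 genes belonged to Bmpr1a, a type I receptor for bone morphogenetic proteins (BMP; chromosome 14, 34411061 to 34503336 in GRCm38.p6). Its level was 31.2, 28.4, 31.6 and 20.9 CPM in aged libraries 1 to 4 and 0.375, 1.31, 1.04 and 1.49 CPM in young libraries 1 to 4. Every aged library was far above every young one, with a log2 change of 4.71 (SE 0.37, adjusted p = 2.1e-08). Lag3, an inhibitory receptor best known from T cells, was at 38.5, 37.2, 34.3 and 27.4 CPM in aged and 9.38, 13.1, 12.1 and 13.9 CPM in young libraries (log2 change 1.50, adjusted p = 4.9e-06). The platelet-derived growth factor receptor gene Pdgfrb stood at 181, 140.3, 170.0 and 146 CPM in aged and 86.6, 64.9, 69.2 and 67.6 CPM in young libraries (log2 change 1.15, adjusted p = 5.1e-06). Neither gene overlapped between the ages. Other genes with small p values were the retinoid transporter gene Abca4 (32.6 ± 5.28 against 8.8 ± 2.72 CPM), the stress-induced gene Ndrg1 (315 ± 29.5 against 170.2 ± 6.02), the glycosyltransferase gene Galnt6 (321 ± 15.8 against 180.0 ± 18.8) and the organic anion transporter gene Slco3a1 (269.8 ± 9.63 against 164 ± 21.7). These 4 rose by 1.89, 0.89, 0.83 and 0.72 on the log2 scale, and each kept its call when any 1 library was left out.

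Among the genes that fell, Plxdc2, which encodes a transmembrane receptor of the plexin domain family (chromosome 2, 16355740 to 16761132 in GRCm38.p6), dropped from 60.8, 73.4, 52.7 and 55.2 CPM in young to 10.9, 9.33, 8.81 and 12.1 CPM in aged libraries. The 4 aged values lay close together, all below every young value, and the log2 change was -2.55 (SE 0.31, adjusted p = 4.5e-05). Cyp27a1, the sterol 27-hydroxylase, was at 13.4, 17.7, 19.1 and 20.2 CPM in young and 4.45, 4.28, 5.61 and 3.76 CPM in aged libraries (log2 change -1.96, adjusted p = 0.00049). Igdcc4, an immunoglobulin superfamily receptor gene, was at 22.1, 35.5, 27.9 and 40.7 CPM in young and 8.74, 5.96, 8.94 and 13.5 CPM in aged libraries (log2 change -1.76, adjusted p = 8.2e-05). For both, every young library was above every aged one. Slc35d3, a nucleotide sugar transporter family member known from platelet dense granules, fell by 2.12 on the log2 scale, the ephrin receptor gene Ephb4 by 1.32, the scaffold gene Mpdz by 1.84, the potassium channel gene Kcnk5 by 1.05 and the corepressor gene Sin3b by 0.43. Of these 5, Mpdz had aged library 4 at 10.5 CPM and the other aged libraries between 3.37 and 4.69 CPM, below a young range of 18.2 to 24 CPM.

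**Figure D2:**
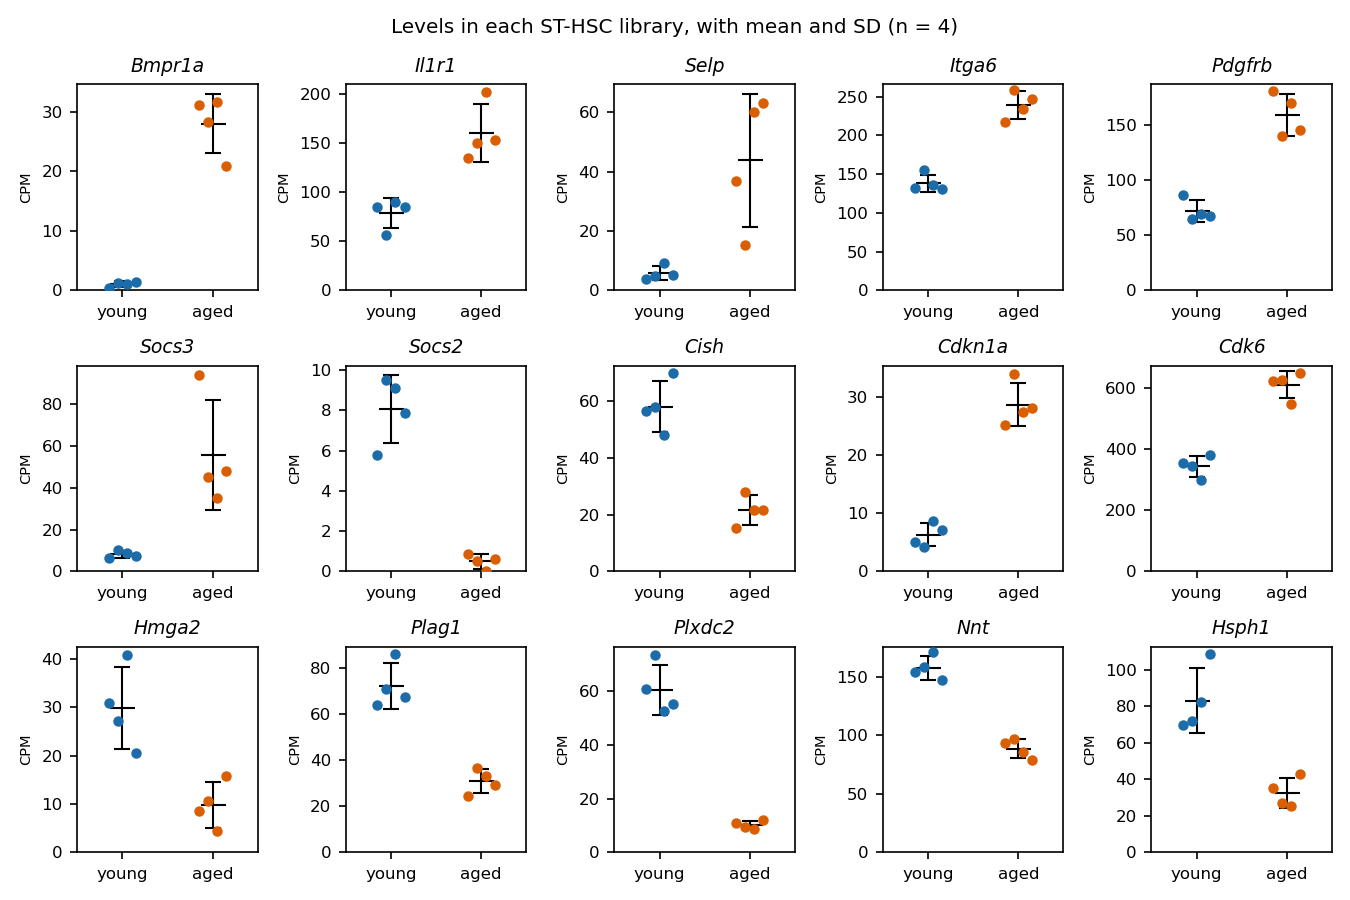
Levels in CPM (vertical axes from 0) of 15 genes in the 4 young (blue) and 4 aged (orange) ST-HSC libraries, 1 point per library, with the mean and SD in black. In all 15 panels the aged and young points do not overlap, and Socs3 shows 1 high aged library at 94.1 CPM. Such separation was a condition for genes named by largest change or smallest p, Bmpr1a, Plxdc2 and Nnt among them.

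In BMP and transforming growth factor beta (TGF-beta) signalling, ligands bind paired type I and type II receptors, which phosphorylate SMAD proteins, and inhibitory SMADs damp the signal. Of 29 tested members of the pathway 6 rose and none fell (background 3.58% higher, 2.21% lower), and the list's median log2 change was 0.0207. Besides Bmpr1a they were the type II TGF-beta receptor gene Tgfbr2, the ligand gene Tgfb3, the BMP effector gene Smad1, the inhibitory Smad7 and Skil, a repressor of SMADs. Tgfbr2 stood at 187, 197, 223 and 199.7 CPM in aged and 128, 156, 152 and 137 CPM in young libraries, a log2 change of 0.49 (adjusted p = 0.0039). Smad1 was at 71.3, 95.7, 77.3 and 67.1 CPM in aged and 60.9, 60.2, 55.7 and 56.5 CPM in young libraries (log2 change 0.41, adjusted p = 0.013). The call was lost without aged library 2 (adjusted p = 0.057). Smad7 rose from 41.1 ± 5.84 to 59.8 ± 6.03 CPM (log2 change 0.54) and lost its call without young library 4 (adjusted p = 0.068). Tgfb3 rose from 1.73 ± 1.04 to 4.7 ± 0.94 CPM (log2 change 1.46) and lost its call without young library 3 (adjusted p = 0.051). Of the 6, 2 passed without aged libraries 2 and 4 together. Besides Bmpr1a, the members that passed moved by at most 1.46 on the log2 scale.

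Chains of the receptors for interleukins 1, 18 and 10 rose. Il1r1, the signalling receptor of the inflammatory cytokine interleukin 1, was at 135, 151, 202 and 153 CPM in aged and 84.6, 56.3, 89.8 and 84.9 CPM in young libraries, without overlap (log2 change 1.02, SE 0.15, adjusted p = 8e-05). Both chains of the interleukin 18 receptor rose. Il18rap went from 79.9, 64.5, 67.9 and 83 to 123, 118, 178 and 152 CPM (log2 change 0.95, adjusted p = 0.00091). Il18r1 went from 15.4, 13.2, 14.5 and 17.9 to 31.7, 45.6, 24.2 and 36.1 CPM (log2 change 1.17, adjusted p = 0.012). Again all aged libraries were above all young ones. Without aged libraries 2 and 4 together the adjusted p of Il18r1 was 0.15. Il10ra rose from 33.6 ± 8.13 to 71.8 ± 20.5 CPM (log2 change 1.09, adjusted p = 0.013). The other chains Il1rap and Il10rb did not pass, with log2 changes of 0.20 and -0.0092 (adjusted p = 0.59 and 0.98). Of 40 tested cytokine and growth factor receptor genes 5 rose and 2 fell (background 3.58% higher, 2.21% lower), with a median of 0.0259. The fifth that rose was Csf1r, described with the monocyte genes, and Tlr4, the receptor for bacterial lipopolysaccharide, was among those that fell. Neither of the lower calls was made without aged library 1 or young library 2.

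The SOCS genes, which are switched on by cytokine signalling through JAK and STAT proteins and feed back to block it, moved in both directions. Socs3 (chromosome 11, 117966079 to 117970336 in GRCm38.p6) was at 94.1, 45.2, 35.2 and 47.9 CPM in aged and 6.63, 10.2, 8.62 and 7.22 CPM in young libraries, with aged library 1 highest and no overlap (log2 change 2.77, SE 0.32, adjusted p = 2.1e-05). Socs2 (chromosome 10, 95383903 to 95417321 in GRCm38.p6), which damps growth hormone signalling, was at 0.874, 0.519, 0 and 0.61 CPM in aged and 5.75, 9.5, 9.09 and 7.84 CPM in young libraries. It was under 1 CPM in all 4 aged libraries, and the log2 change was -3.87 (SE 0.52, adjusted p = 4.6e-05). Cish, the family member most used as a readout of STAT5, fell from 56.4, 57.9, 48 and 69.7 CPM in young to 15.3, 28, 21.6 and 21.6 CPM in aged libraries (log2 change -1.43, adjusted p = 0.0039). Socs5 fell from 81.9 ± 8.59 to 55.9 ± 5.92 CPM (log2 change -0.55, adjusted p = 0.0055). Of the 8 members, all tested, 1 rose, 3 fell and 4 did not pass, with a median log2 change of -0.376. The calls of Socs3, Socs2 and Cish held in every alternative fit that was run.

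Immediate early genes, which are transcribed within minutes of a stimulus without new protein synthesis and which also respond to cell dissociation, were higher in aged ST-HSC. Of 48 tested members 21 rose and none fell, 47 had a positive log2 change, and the median was 0.786. Nr4a2, an orphan nuclear receptor, was at 91.2, 110.1, 104 and 114 CPM in aged and 27.8, 39.5, 28.5 and 19.9 CPM in young libraries (log2 change 1.85, SE 0.22, adjusted p = 2.4e-05). The antiproliferative gene Btg2 was at 396, 445, 388 and 329 CPM in aged and 122, 224, 188 and 171 CPM in young libraries (log2 change 1.14, adjusted p = 0.00011). For both, the lowest aged value was above the highest young value. Ier3 rose by 1.13 and the small Maf gene Maff by 0.87 on the log2 scale (adjusted p = 0.00046 and 0.0011). Egr1, a zinc finger factor tied to stem cell quiescence, was at 2059, 2302, 1291 and 1348 CPM in aged and 556, 1226, 750.0 and 699.5 CPM in young libraries (log2 change 1.11, adjusted p = 0.015), and in a fit to the 8 ST-HSC libraries alone its adjusted p was 0.13. Among the young libraries, library 2 was highest for Egr1 and Btg2 and library 3 for Maff. Without aged libraries 2 and 4 together 11 members passed, and sorting time or handling per age is not given in the sources used here. In the 250 bases before the start site, TGACGTCA, the cAMP response element (palindromic, so both strands are read at once), was in 6 of the 39 members with an entry in the RefSeq promoter table (15.4%) and in 1.77% of all 27025 genes of that table.

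Some adhesion genes rose. Itga6, the integrin alpha 6 chain by which stem cells bind laminin, was at 217, 259, 234 and 247 CPM in aged and 132, 155, 135 and 131 CPM in young libraries (log2 change 0.79, SE 0.09, adjusted p = 4.9e-06). It did not overlap between the ages. Itga2b, the CD41 chain of the platelet integrin, rose from 59.8 ± 7.27 to 111 ± 17.1 CPM (log2 change 0.89, adjusted p = 0.00069). Ncam1, the neural cell adhesion molecule, rose from 1.5, 0.655, 0.284 and 3.73 to 36.4, 16.2, 23.9 and 10.2 CPM (log2 change 3.86, adjusted p = 0.0056; 0.066 by limma-voom). Of 45 tested adhesion molecules and integrins 8 rose, 5 of them without young library 3, and 2, Jam3 and Itgb5, fell. Neither of the lower calls was made without aged library 3 or 4 or young library 1, 3 or 4. The list's median was 0.108, and the background over all genes was 3.58% higher and 2.21% lower. Vcam1, a bone marrow adhesion receptor that central macrophages express at high level, was at 21.8, 156, 31.4 and 159 CPM in aged and 1.5, 3.38, 9.66 and 10.3 CPM in young libraries (log2 change 3.87, adjusted p = 0.036). Vcam1 is itself one of the monocyte and macrophage markers, with 274, 1205, 235 and 1564 counts in aged libraries 1 to 4. Its highest values were in aged libraries 2 and 4, the ones with the most counts of those markers, to which it adds. In aged libraries 1 and 3 it was also above all young values. The call was lost without aged library 2 or 4 or any 1 young library (adjusted p = 0.066 to 0.1), and with aged libraries 2 and 4 left out together the adjusted p was 0.39.

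Genes that other studies often find raised in aged stem cells were also higher here: 13 of 36 tested rose, none fell, and the median was 0.828. Aldh1a1, a retinaldehyde dehydrogenase, was at 78.3, 60.5, 88.6 and 111 CPM in aged and 10.5, 15, 5.78 and 22.3 CPM in young libraries (log2 change 2.68, SE 0.35, adjusted p = 9e-05). The P-selectin gene Selp was at 36.9, 15.2, 60.2 and 62.9 CPM in aged and 3.88, 4.91, 9.28 and 5.1 CPM in young libraries (log2 change 2.89, adjusted p = 0.00021). Plscr2, of the phospholipid scramblase family, was at 13.3, 14.1, 7.87 and 10.4 CPM in aged and 0.751, 0.874, 0.947 and 0.747 CPM in young libraries (log2 change 3.75, adjusted p = 2.1e-05). The lowest aged value of each of the 3 genes was above its highest young value. Wwtr1, the TAZ coactivator of the Hippo pathway (chromosome 3, 57455644 to 57575910 in GRCm38.p6), summed to 321 counts over the aged and 2 over the young libraries, a ratio per library total of 149 with a 95% exact counting interval of 40.8 to 1230, which covers counting error only. Fhl1, a LIM domain gene, rose from 12.3 ± 1.57 to 23.8 ± 2.27 CPM (log2 change 0.96). Cd38, an ectoenzyme, was at 3.97, 15.2, 5.74 and 19.6 CPM in aged and 2.5, 1.31, 0.853 and 0.871 CPM in young libraries (log2 change 3.02, adjusted p = 0.013, and 0.11 by limma-voom). Cd38 too was highest in aged libraries 2 and 4, and without both its adjusted p was 0.22.

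Some of the same genes are platelet genes. Of 31 tested platelet and megakaryocyte genes 7 rose and 1 fell (background 3.58% higher, 2.21% lower), with a median of 0.214. Without aged library 4, 4 rose. Plek, which encodes the platelet kinase substrate pleckstrin, was at 192, 233, 328 and 223 CPM in aged and 93.6, 106, 96 and 108 CPM in young libraries (log2 change 1.27, adjusted p = 0.0096). F2r, the thrombin receptor gene, rose from 41 ± 2.3 to 60.6 ± 8.82 CPM (log2 change 0.56, adjusted p = 0.013). Summed megakaryocyte markers held 0.0139% to 0.0167% of counts in aged and 0.00883% to 0.0105% in young libraries, and their part in these changes was not tested. Itga2b, itself one of the 7, supplied most of that sum, with 4212 counts over the aged and 2140 over the young libraries. Gp1ba had 798 and 594 counts, Pf4 411 and 225, and Gp5 163 and 61. Gp9 had 193 and 188 counts, Tubb1 19 and 19, and Ppbp 63 and 102.

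Genes of neutrophil precursors had the highest median change of the lists described here, leaving aside those of markers of other cell types, and it was uneven among libraries. Of 20 tested granule and neutrophil precursor genes 11 rose and none fell, with a median log2 change of 3.00. Ctsg, the granule protease cathepsin G, was at 157, 38.4, 73.7 and 8.64 CPM in aged and 0.25, 0.655, 0.189 and 0 CPM in young libraries (log2 change 7.90, adjusted p = 0.033). Ms4a3, a marker of granulocyte and monocyte progenitors, was at 97.6, 29.7, 59 and 1.73 CPM in aged and 0.751, 0, 0.189 and 0 CPM in young libraries (log2 change 7.63, adjusted p = 0.031). Both were high in aged libraries 1 to 3 and at least 4-fold lower in aged library 4, which was still above each young library. Ly6c2, a monocyte surface gene of the precursor list below with near-identical copies in its family, followed the same order, with 64.4, 31.1, 64.3 and 1.73 CPM in aged and at most 0.218 CPM in young libraries. Abca13, a transporter gene of neither list, summed to 1200 counts over the aged and 1 over the young libraries. That is a ratio of 1110 with a 95% exact counting interval of 199 to 43900, and aged library 4 held 0.203 CPM of it. The calls of these 4 genes did not hold without some single libraries. Ctsg lost it without aged library 1 or 3 or any 1 young library (adjusted p = 0.051 to 0.098). Ms4a3 lost it without aged library 1 or any 1 young library (adjusted p = 0.063 to 0.09). Ly6c2 lost it without aged library 1, 2 or 3 or any 1 young library (adjusted p = 0.052 to 0.1). Abca13 lost it without aged library 1 or 3 or any 1 young library (adjusted p = 0.058 to 0.1). In limma-voom their adjusted p was 0.46 to 0.68, and 3 of the 20 list members passed. The list count ranged from 4 without young library 2 to 12 without aged library 4.

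Some members of that list were more even among the aged libraries. Nkg7, a granule membrane gene of cytotoxic and progenitor cells, was at 203, 145, 219 and 131 CPM in aged and 59.5, 74.1, 56.9 and 54.2 CPM in young libraries (log2 change 1.51, SE 0.23, adjusted p = 0.00052). Srgn, the proteoglycan that packs granule contents, was at 401, 422, 501 and 416 CPM in aged and 299, 313, 263 and 302 CPM in young libraries (log2 change 0.56, adjusted p = 0.0027). In both genes all aged libraries were above all young ones, aged library 4 included. Serpinb1a, an inhibitor of neutrophil proteases, rose from 39.5 ± 7.18 to 72.4 ± 12.3 CPM (log2 change 0.87, adjusted p = 0.01). Clec12a, an inhibitory lectin of myeloid cells, rose from 0.751, 0.437, 1.8 and 2.12 to 19.4, 16.2, 30.8 and 5.8 CPM (log2 change 3.80, adjusted p = 0.0025; 0.061 by limma-voom). Outside the list, Rab44, a Rab GTPase of granulocytes and mast cells, was at 132, 25.4, 53.3 and 19.2 CPM in aged and 1, 1.31, 1.04 and 2.37 CPM in young libraries (log2 change 5.36, adjusted p = 0.0015; 0.14 by limma-voom). The complement gene C3 was at 55.1, 45.4, 58.3 and 38.8 CPM in aged and 0.5, 0, 0.284 and 2.49 CPM in young libraries (log2 change 5.98, adjusted p = 0.031; 0.24 by limma-voom). That call was lost without aged library 1 or young library 1, 2 or 3 (adjusted p = 0.052 to 0.095). The dipeptide transporter gene Slc15a2 was at 115, 46, 52.7 and 34.6 CPM in aged libraries, and of the young ones libraries 1 and 2 held 4.38 and 4.59 CPM and libraries 3 and 4 were at 0 (log2 change 4.82, adjusted p = 0.015; 0.27 by limma-voom). Markers of mature granulocytes were spread in another order: of the 15 in the table, Ltf had 1359 counts in aged library 2 and at most 1 in any other library. S100a8, another such marker, had 4697, 1567 and 1343 counts in aged libraries 2, 3 and 1, 1140 in young library 4 and at most 21 elsewhere. Others were highest in young library 4. Retnlg had 215 counts there and 23 in aged library 2, Mmp9 203 and 97, Mmp8 111 and 0, and Cxcr2 80 and 16. The summed share of the mature granulocyte markers was 0.0124% in aged library 1, with the highest Ctsg, and 0.0328% in young library 4, where Ctsg was at 0. These are markers of mature cells, and the part of mature granulocytes or of sorted precursors in these changes was not tested.

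Of 18 tested monocyte precursor genes 6 rose and none fell, with a median of 1.01; 2 passed without young library 1 or 2 or without aged libraries 2 and 4 together, and 3 without young library 3 or aged library 4. Fcgr3, an Fc receptor of myeloid cells, was at 15.8, 9.98, 14 and 13.8 CPM in aged and 0.125, 0.109, 0 and 1.24 CPM in young libraries (log2 change 5.23, SE 1.01, adjusted p = 0.0038; 0.15 by limma-voom). It was even among the aged libraries and did not overlap. Mpeg1, the pore-forming protein of phagocytes, was at 10.9, 45.1, 14 and 91.7 CPM in aged and 9.26, 1.31, 5.4 and 5.23 CPM in young libraries (log2 change 2.94, adjusted p = 0.013), and without aged libraries 2 and 4 its adjusted p was 0.32. Csf1r, the receptor of macrophage colony-stimulating factor, was at 9.85, 34.9, 6.81 and 85.8 CPM in aged and 3.38, 3.38, 7.01 and 6.6 CPM in young libraries, with aged library 3 inside the young range (log2 change 2.74, adjusted p = 0.019). Its call was lost without aged library 4 or young library 1 or 2 (adjusted p = 0.055 to 0.085), with a log2 change of 1.75 without aged library 4. Macrophage-restricted markers ran in the same order, with C1qb at 594 counts in aged library 4 and 242 in aged library 2, against 8 to 56 in the other libraries, and Mrc1 at 1143 and 448 against 1 to 74. Of the 22 macrophage and monocyte markers none was at 0 in all 8 libraries. Mpeg1, Csf1r and Vcam1 are themselves among these markers, and the part of macrophages in their changes was not tested.

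Of the myeloid transcription factors 4 of 23 rose (background 3.58% higher), none fell, and the median was 0.264. Zeb2, a zinc finger repressor needed for myeloid and megakaryocyte fates, was at 150.4, 128, 144 and 165 CPM in aged and 113, 110.3, 106 and 103 CPM in young libraries (log2 change 0.44, adjusted p = 0.0066). Maf, a macrophage and T cell factor, was at 40.2, 49.9, 34.7 and 56.2 CPM in aged and 15.9, 9.39, 11.2 and 21.5 CPM in young libraries (log2 change 1.65, adjusted p = 0.0092), with an adjusted p of 0.096 without aged libraries 2 and 4. The others were Egr1 and the neutrophil factor gene Cebpe, which was at 2.78, 3.89, 4.54 and 0.203 CPM in aged and 0.375, 0.218, 0.189 and 0 CPM in young libraries (log2 change 3.77), with overlap between the ages and a call lost without aged library 2 or 3 or young library 2, 3 or 4 (adjusted p = 0.054 to 0.078).

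**Figure D3:**
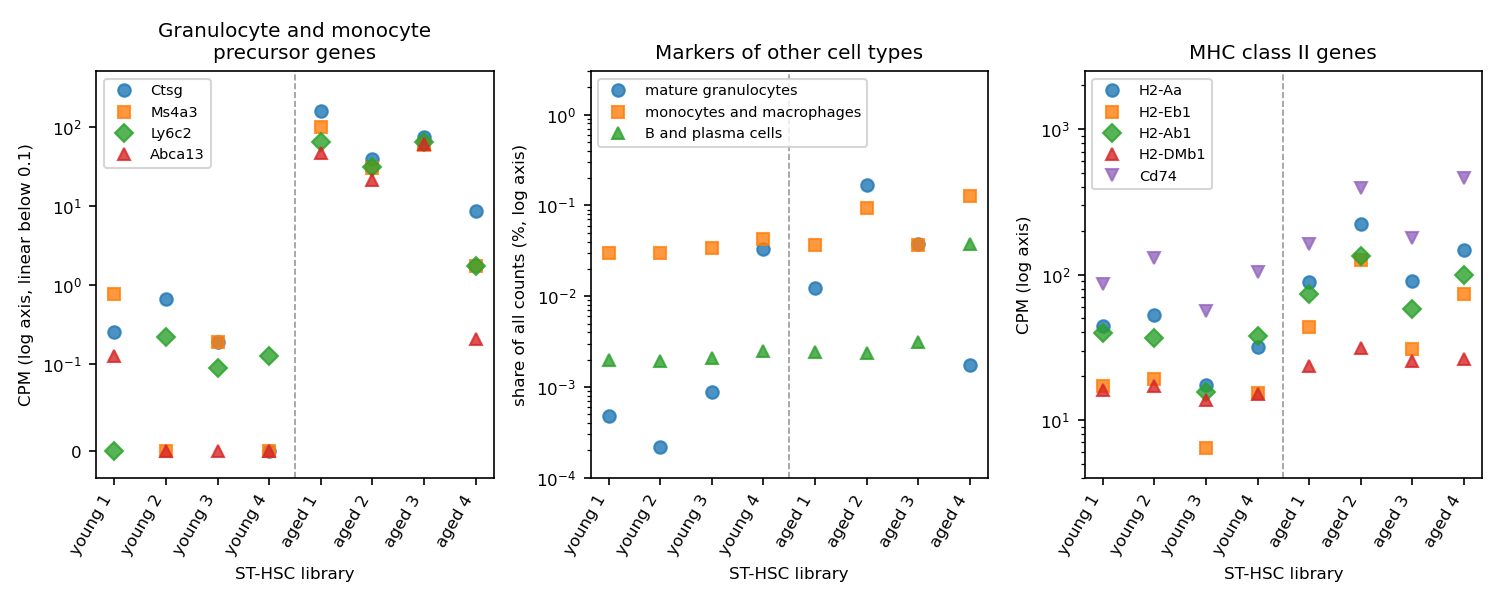
Values in the 4 young and 4 aged ST-HSC libraries, left to right in each panel. The first panel gives CPM of Ctsg, Ms4a3, Ly6c2 and Abca13, the last a member of neither precursor list (log axis, linear below 0.1). The second gives the share of all counts held by markers of 3 other cell types (percent, log axis). The third gives CPM of 5 MHC class II genes (log axis). The 4 genes of the first panel are lowest among the aged libraries in library 4, where macrophage and B and plasma cell markers are highest. MHC class II genes are highest in aged libraries 2 and 4.

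Genes of MHC class II, which present peptides to helper T cells and are under the coactivator CIITA, were higher in aged ST-HSC. All 11 tested genes of the list had a positive log2 change, 6 rose and none fell, and the median was 0.784. Class II promoters share conserved X and Y boxes, which RFX and NF-Y proteins bind and on which CIITA assembles. To show them, the 250 bases before the RefSeq start site (build GRCm38.p6) of 3 genes that rose are printed below 5′ to 3′ on the strand of the gene, with matches to the Y box core CCAAT, the X box core (AG, any base, AAC, any base, GATG) and the X2 or cAMP response element TGACGTCA, searched on both strands, in capitals (ATTGG is CCAAT on the other strand).
H2-Aa (chr17:34287824-34288073, minus strand): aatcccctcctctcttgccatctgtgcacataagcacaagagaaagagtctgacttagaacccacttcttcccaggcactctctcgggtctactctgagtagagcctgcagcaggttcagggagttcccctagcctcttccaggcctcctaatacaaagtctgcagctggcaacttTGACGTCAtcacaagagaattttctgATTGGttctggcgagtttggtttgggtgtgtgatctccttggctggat
H2-Eb1 (chr17:34305617-34305866, plus strand): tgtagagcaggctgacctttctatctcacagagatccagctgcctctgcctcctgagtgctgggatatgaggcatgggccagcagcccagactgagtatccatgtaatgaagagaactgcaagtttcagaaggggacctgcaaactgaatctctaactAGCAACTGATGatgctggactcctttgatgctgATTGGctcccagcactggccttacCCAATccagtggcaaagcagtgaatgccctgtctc
H2-DMb1 (chr17:34152941-34153190, plus strand): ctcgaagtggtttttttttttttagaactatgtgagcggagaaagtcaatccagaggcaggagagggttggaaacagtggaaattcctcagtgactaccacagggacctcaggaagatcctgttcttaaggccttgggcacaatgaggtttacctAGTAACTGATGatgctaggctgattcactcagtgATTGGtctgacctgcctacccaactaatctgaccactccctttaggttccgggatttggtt

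A CCAAT match lay 48 bases before the start in H2-Aa, at 59 and 35 bases in H2-Eb1 and at 61 bases in H2-DMb1, counted at the first base of the match. The X box core lay at 92 bases in H2-Eb1 and 95 in H2-DMb1, and TGACGTCA at 74 in H2-Aa. Of the 8 list members with a promoter entry, all 8 held CCAAT, 3 the X box core and 1 TGACGTCA. Shares over all 27025 genes with a promoter entry were 37.5%, 0.311% and 1.77%.

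H2-Aa, the alpha chain of the classical molecule I-A, was at 88.3, 223, 90.1 and 148 CPM in aged and 44.5, 52.4, 17.5 and 31.7 CPM in young libraries (log2 change 1.91, SE 0.31, adjusted p = 0.00094). H2-Ab1, its beta chain, was at 73.9, 134, 58.1 and 99.5 CPM in aged and 39.9, 36.6, 15.5 and 37.7 CPM in young libraries (log2 change 1.50, adjusted p = 0.0026). H2-Eb1, the beta chain of I-E, was at 43.6, 126, 30.7 and 73.9 CPM in aged and 17, 19.1, 6.44 and 15.3 CPM in young libraries (log2 change 2.25, adjusted p = 0.002). In each gene all aged libraries were above all young ones, aged library 2 was highest and young library 3 lowest. The peptide loading genes H2-DMb1 and H2-DMa rose less, from 15.5 ± 1.52 to 26.7 ± 3.3 CPM and from 133 ± 18.7 to 169 ± 7.75 CPM (log2 changes 0.78 and 0.35). The H2-DMa call was lost without aged library 2 or young library 3 or 4 (adjusted p = 0.059 to 0.095). Cd74, the invariant chain, was at 162, 394, 179.8 and 458 CPM in aged and 85.9, 129, 56.5 and 105 CPM in young libraries (log2 change 1.67, adjusted p = 0.025), lost without aged library 2 or 4 or young library 1, 3 or 4 (adjusted p = 0.051 to 0.08). Ciita was at 24.1 ± 3.94 against 12.5 ± 5.48 CPM (log2 change 0.93, adjusted p = 0.093). The class II genes were highest in the same aged libraries as the macrophage markers, 2 and 4. In aged libraries 1 and 3 H2-Aa was at 88.3 and 90.1 CPM, above the highest young value of 52.4. Their summed macrophage marker share lay within the young range, but Lyz2 was its largest part, with 2413 and 1401 counts. Adgre1 had 102 and 23 counts in aged libraries 1 and 3, and 9 to 54 in the young ones. C1qc had 65 and 14 counts, and 4 to 29 in the young ones. The part of macrophages in the class II changes was not tested. With libraries 2 and 4 left out 2 of the 11 passed, and in a fit to the 8 ST-HSC libraries alone 1 passed (adjusted p = 0.084 for H2-Aa). Reads shared between near-identical H2 genes may have been divided by the counting, whose settings the sources used here do not give.

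Interferon response genes leaned slightly below 0: 2 of 49 rose and 3 fell (background 3.58% higher, 2.21% lower). Their median was -0.23, with 38 members below 0. Ifi47, an interferon-gamma induced GTPase, was at 98.6, 118, 113 and 109 CPM in aged and 79.7, 62.1, 70.0 and 69 CPM in young libraries (log2 change 0.64, adjusted p = 0.0013). Stat2 and Irf9, which encode parts of the main factor of type I interferon signalling, both fell. Stat2 went from 93.3, 72.5, 89.7 and 75.1 to 59.7, 69, 47.2 and 52.4 CPM (log2 change -0.53, adjusted p = 0.0097). Irf9 went from 100.1, 132, 108 and 116 to 86.5, 86.2, 81.2 and 82.7 CPM (log2 change -0.43, adjusted p = 0.011). The Irf9 call was lost without young library 2 (adjusted p = 0.071). Sp100 (log2 change 0.40, adjusted p = 0.034) and Mx2, which RefSeq lists as a transcribed pseudogene in the mouse reference (log2 change -1.51, adjusted p = 0.027) also passed, and their calls were lost without aged library 2 or 3 or young library 1, 2 or 4 (adjusted p = 0.053 to 0.11), and without aged library 2, 3 or 4 or young library 2 or 3 (adjusted p = 0.061 to 0.11). In a fit to the 8 ST-HSC libraries alone 7 members fell and 1 rose.

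Of 15 tested genes of MHC class I and the immunoproteasome H2-T23 alone rose, and no gene fell. None rose without aged library 2 or 3 or young library 3 or 4, or in the fit to the 8 ST-HSC libraries alone. Of 31 tested lymphoid priming genes 1 rose and 1, Notch1, fell. Notch1, the receptor that drives T lineage choice, was at 363, 345, 411 and 314 CPM in aged and 446, 522, 526 and 468 CPM in young libraries (log2 change -0.45, adjusted p = 0.014). Its call was lost without aged library 4 or young library 2 or 3 (adjusted p = 0.055 to 0.059). None of 22 erythroid priming genes passed, by edgeR, DESeq2 or limma-voom, although their median was 0.552, and erythroblast markers held 0.0786% to 0.161% of the counts of aged and 0.104% to 0.149% of young libraries.

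Of 39 transcription factors of stem cells 1 rose and 3 fell (background 3.58% higher, 2.21% lower), with a median of -0.0439. Among 17 tested genes of fetal stem cells 3 fell and none rose, with a median of -0.345. Hmga2, a chromatin protein that gives fetal and young stem cells their higher self-renewal, fell from 30.9, 27.1, 40.7 and 20.5 CPM in young to 8.66, 10.6, 4.4 and 15.9 CPM in aged libraries (log2 change -1.58, SE 0.28, adjusted p = 0.0014). Plag1, a zinc finger factor of fetal growth, fell from 63.7, 70.9, 86 and 67.4 to 24.3, 36.7, 33.2 and 29.4 CPM (log2 change -1.23, adjusted p = 0.0032). Mycn, a MYC family gene on both lists, fell from 89.3, 97.2, 113 and 91 to 49.9, 60.8, 41.8 and 52.3 CPM (log2 change -0.93, adjusted p = 0.00037). In all 3 every young library was above every aged one. Klf12 fell from 47.4 ± 2.95 to 26.8 ± 3.17 CPM (log2 change -0.82, adjusted p = 0.0084). The imprinted gene Ndn fell from 14.6 ± 2.52 to 8.24 ± 1.93 CPM (log2 change -0.81). It did not pass without aged library 2, 3 or 4 or any 1 young library (adjusted p = 0.05 to 0.14). Pbx3, a homeodomain partner of HOX proteins, was the one factor of the list that rose, from 9.88, 10.6, 12.5 and 12.9 to 27.4, 18.4, 21.5 and 29.6 CPM (log2 change 1.08, adjusted p = 0.00069).

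Regulators of the G1 phase passed in 4 of 18 cases and S phase genes in 1 of 63. Cdkn1a, the CDK inhibitor p21 (chromosome 17, 29090979 to 29100722 in GRCm38.p6), was at 25.1, 33.8, 27.4 and 28.1 CPM in aged and 5.13, 4.26, 8.62 and 7.1 CPM in young libraries (log2 change 2.18, SE 0.27, adjusted p = 2e-05). Cdk6, the G1 kinase whose level sets how fast stem cells leave rest, was at 623, 626, 547 and 651 CPM in aged and 355, 344, 299 and 380.0 CPM in young libraries (log2 change 0.83, SE 0.11, adjusted p = 2.5e-05). An inhibitor and a kinase of the same step were thus both higher in each of the 4 aged libraries than in any young one. Cdkn2c, the CDK4 and CDK6 inhibitor p18, was at 15.7, 21.5, 14.9 and 15.7 CPM in aged and 11.9, 3.17, 4.74 and 3.98 CPM in young libraries (log2 change 1.52, adjusted p = 0.013). The cyclin gene Ccnd2 fell from 584, 716, 657 and 555 to 426, 504, 469.7 and 488 CPM (log2 change -0.41, adjusted p = 0.014). It was lost without aged library 1 or young library 2 or 3 (adjusted p = 0.053 to 0.076). Of the 18 tested CDK inhibitors and G1 cyclins and kinases these 3 rose and 1 fell. Of 63 tested S phase genes only Rfc2, a subunit of the clamp loader, passed, at 207 ± 12.9 against 161 ± 18.5 CPM (log2 change 0.37). The call was lost without young library 3 (adjusted p = 0.068). None of 77 genes of G2 and mitosis passed by edgeR, DESeq2 or limma-voom, although 74 had a positive log2 change and the median was 0.554. In the fit to the 8 ST-HSC libraries alone 2 passed, and without young library 1, 3.

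Genes of survival and of the p53 response moved in a few members. The antiapoptotic genes Bcl2 and Mcl1 rose from 86.2 ± 3.65 to 120.3 ± 12 CPM and from 510.0 ± 32.5 to 687 ± 95.5 CPM, and the proapoptotic Bcl2l11, which encodes BIM, from 66.8 ± 14.4 to 103 ± 17.2 CPM (log2 changes 0.48, 0.43 and 0.62). They were 3 of 13 tested BCL2 family genes (background 3.58% higher). Without young library 3 the calls of Mcl1 (adjusted p = 0.056) and Bcl2l11 (0.07) were lost. So they were without aged library 2 for Mcl1 (0.061) and aged library 3 for Bcl2l11 (0.061). Of 26 p53 targets Cdkn1a, Btg2 and the kinase gene Plk3 rose, none fell, and the median was -0.117. Plk3 was at 30.8 ± 7.66 against 16.4 ± 1.99 CPM (log2 change 0.91) and was lost without aged library 2 or young library 1, 3 or 4 (adjusted p = 0.071 to 0.11).

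A few metabolic enzymes fell. Nnt, the mitochondrial transhydrogenase that makes NADPH, fell from 154, 159, 171 and 147 CPM in young to 93.7, 96.5, 85.7 and 79 CPM in aged libraries (log2 change -0.83, SE 0.08, adjusted p = 1.8e-06). Its log2 change was -0.88 in LT-HSC and -0.97 in MPP. Because the labels name no substrain, a substrain difference between the ages cannot be told apart from age for this gene. Oxct1, the enzyme that lets cells use ketone bodies, fell from 92.9, 67.7, 72.1 and 91.8 to 44, 42.3, 34.4 and 50.9 CPM (log2 change -0.91, adjusted p = 9.4e-05). Ldhb, the lactate dehydrogenase chain of oxidative tissues, fell from 71.8, 62.7, 66.4 and 61.3 to 35.4, 39.9, 32.7 and 37.2 CPM (log2 change -0.85, adjusted p = 7.5e-05). Each of these had every young library above every aged one. The glucose transporter gene Slc2a1 and the aldolase gene Aldoc fell too, by 0.73 and 1.44 on the log2 scale (adjusted p = 0.0043 and 0.0077). Ucp2, a mitochondrial carrier and the 1 gene of 52 for mitochondrial dynamics and quality control that passed, rose from 376, 457, 379 and 384 to 609, 559.6, 527 and 592 CPM (log2 change 0.52, adjusted p = 0.0004). In the lists, 1 of 42 glycolysis and TCA cycle genes rose and 3 fell. The one that rose was Dld, lost without young library 4 (adjusted p = 0.054). None of 80 nuclear genes of oxidative phosphorylation, 76 mitochondrial ribosomal proteins or 22 folate and serine enzymes passed by edgeR. Of 78 cytosolic ribosomal protein genes Rps25 rose, none passed without aged library 1 or young library 2, 3 or 4, and 3 rose without aged library 3. None of the 80, 76 or 22 genes passed by DESeq2 or limma-voom, except 1 folate and serine enzyme that was lower by DESeq2, and without aged library 3 edgeR called 2 oxidative phosphorylation genes higher. Of 42 lysosome and autophagy genes 1 rose and none fell. Of 41 DNA methylation and Polycomb genes Cbx6 and Phc3 fell, by 0.44 and 0.29 on the log2 scale, with Phc3 lost without aged library 1 or 4 or young library 1, 2 or 3 (adjusted p = 0.054 to 0.12).

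Protein folding genes split. Hsph1, the HSP110 chaperone, fell from 69.8, 71.6, 82.5 and 108 CPM in young to 35.3, 26.8, 25.4 and 42.9 CPM in aged libraries (log2 change -1.34, SE 0.20, adjusted p = 0.00016). Hsf1, the master factor of heat shock genes, fell from 98.8, 88.9, 99.4 and 90.5 to 70.1, 67.8, 65.9 and 66 CPM (log2 change -0.48, adjusted p = 0.0024). Cirbp, an RNA-binding protein induced by mild cold, rose from 42.2, 36.5, 39.4 and 40.7 to 74.8, 88.7, 91.6 and 67.3 CPM (log2 change 1.02, adjusted p = 4.3e-05). None of the 3 overlapped between the ages. Of 37 tested genes of the list 4 rose and 2 fell, with a median of 0.121, and without aged library 1 or young library 3 only 1 rose.

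The next question was where the age effect of ST-HSC differs from that of LT-HSC, tested gene by gene as the difference of the log2 changes. It differed in 575 of 14205 genes (4.05%), more positive in ST-HSC in 340 (2.39%) and more negative in 235 (1.65%). Aged LT-HSC themselves differed from young LT-HSC in 2678 genes (18.9%). Of the 823 ST-HSC genes 389 also passed in LT-HSC in the same direction, 47.3% of the ST-HSC and 14.5% of the LT-HSC genes, and 13 in the opposite one. The labels do not say whether the populations came from the same mice. Several of the lowest p-values belonged to genes that passed in LT-HSC and not in ST-HSC. Gpr183, a migration receptor for oxysterols, rose by 3.45 on the log2 scale in LT-HSC and had a log2 change of -0.07 in ST-HSC (difference -3.52, adjusted p = 1.7e-10). The adhesion gene Alcam rose by 2.19 in LT-HSC against 0.11 in ST-HSC, the phosphodiesterase family gene Enpp5 by 2.04 against 0.30 and the glycolytic regulator gene Pfkfb3 by 1.76 against 0.29. Fyb, an adaptor of immune and platelet signalling, rose in both, by 1.92 and 0.45, and its ST-HSC call was lost without young library 2 or 3 (adjusted p = 0.059 to 0.067). In the other direction the nucleoside transporter gene Slc28a2 fell by 1.49 in LT-HSC and stood at 0.39 in ST-HSC (difference 1.87, adjusted p = 4.9e-07). The potassium channel gene Kcna3 fell by 1.40 in LT-HSC and rose by 0.45 in ST-HSC, the latter lost without aged library 2 or 3 or young library 3 (adjusted p = 0.053 to 0.09). Umps, a pyrimidine synthesis gene, the ER gene Sdf2l1 and the phosphatase gene Ptpn7 fell in LT-HSC by 1.32, 2.43 and 1.26, against -0.14, 0.72 and -0.11 in ST-HSC.

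Of the gene lists, the S phase genes held the most members with a difference that passed. In LT-HSC 54 of 63 fell with age (background 8.87% lower) with a median of -1.19, in ST-HSC 1 rose with a median of 0.0856, and the difference passed in 34. For Rfc2 the difference was 1.18 (adjusted p = 2.6e-06). Folate and serine enzymes had 13 of 22 lower in LT-HSC, none in ST-HSC, and 7 with a difference that passed. Of the granule genes 11 rose in ST-HSC, while 1 rose (background 9.98% higher) and 4 fell in LT-HSC, with 6 differences that passed, among them Nkg7 (difference 3.00, adjusted p = 7.6e-05) and Clec12a (8.45, 0.0019). Mature granulocyte markers held 0.00388% of the counts of young LT-HSC library 1. They held 0.000382% to 0.000938% in the other young and 0.000423% to 0.0011% in the aged LT-HSC libraries. The part of young LT-HSC library 1 alone in these differences was not tested. Of the monocyte precursor genes 8 differed. Of the 48 immediate early genes 21 rose in ST-HSC, 30 rose and 1 fell in LT-HSC, and 2 differed. Of the genes often found raised in aged stem cells 35 of 36 rose in LT-HSC with a median of 2.25, and 11 differed, among them Selp (-2.67, 0.0092). Bmpr1a, Socs3, Cdkn1a and Nnt rose or fell in LT-HSC as in ST-HSC, by 3.94, 3.86, 2.75 and -0.88 on the log2 scale, and their differences did not pass (adjusted p = 0.43, 0.18, 0.45 and 0.87), which does not show that they were equal. Without aged ST-HSC libraries 2 and 4 the count of 575 was 335.

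**Figure D4:**
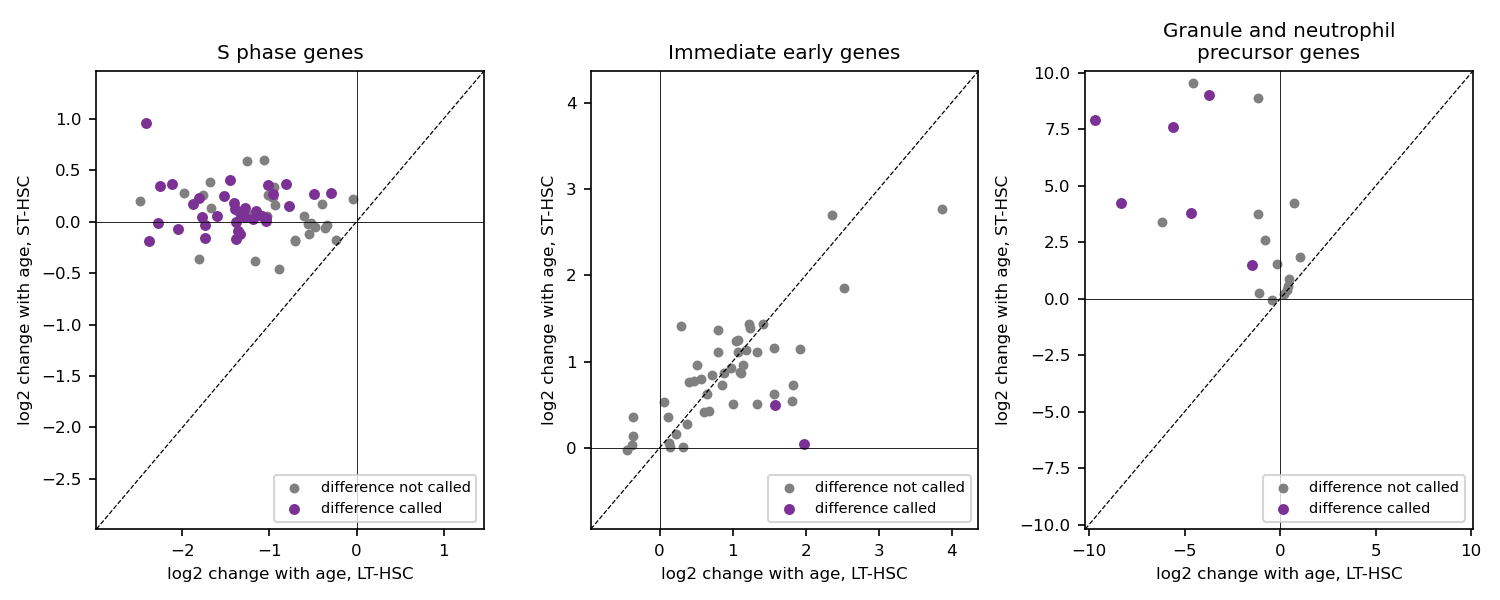
Log2 change with age in ST-HSC (vertical axis) against that in LT-HSC (horizontal axis) for the tested members of 3 lists, 1 point per gene, with genes whose difference passed in purple and the line of equal change dashed. S phase genes lie near 0 in ST-HSC and below 0 in LT-HSC (34 of 63 in purple), immediate early genes lie along the line (2 of 48), and 6 of 20 granule and precursor genes are in purple above it.

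Against MPP the difference passed in 66 genes (0.465%), 26 more positive and 40 more negative in ST-HSC, while 1391 genes (9.79%) changed with age in MPP, 785 higher (5.53%) and 606 lower (4.27%). By limma-voom 34 genes differed, and in a fit to the ST-HSC and MPP libraries alone 25. Of the 823 ST-HSC genes 357 passed in MPP in the same direction, 43.4% of the ST-HSC and 25.7% of the MPP genes, and 1 in the opposite one. Tfcp2l1, a Grainyhead-like factor, was at 30.8, 54.2, 49.1 and 28.8 CPM in aged and 17.1, 10.5, 11.2 and 19.3 CPM in young ST-HSC (log2 change 1.49), rose by 2.76 in LT-HSC and stood at -0.23 in MPP. With Abca4 and Plag1 it was among the 4 ST-HSC genes whose age effect differed from both other populations. Abca4 rose by 1.89 in ST-HSC and 3.25 in LT-HSC, and stood at 0.36 in MPP. Plag1 was at -1.23 and -3.01 in ST-HSC and MPP, both past the threshold, and stood at 0.23 in LT-HSC. The clathrin uncoating gene Dnajc6 and the GTPase regulator gene Arhgap29 rose in ST-HSC by 0.68 and 0.98, with -0.06 and -0.79 in MPP (difference adjusted p = 0.016 and 0.016). Mecom, a stem cell factor gene, fell by 0.59 in MPP and stood at 0.07 in ST-HSC. Genes that rose in MPP with a less positive change in ST-HSC included the kinase-like gene Trib1 (2.60 against 0.63), the receptor gene Tmem154 (1.91 against -0.07) and 4 genes that plasma cells express at high level: Xbp1 (1.77 against 0.10), Txndc5 (2.32 against 0.06), Derl3 (3.59 against 0.44) and Ell2 (1.66 against -0.24). B and plasma cell markers held 0.183% to 0.88% of the counts of aged MPP libraries and at most 0.0372% of any ST-HSC library's counts, and their part in these differences was not tested.

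**Figure D5:**
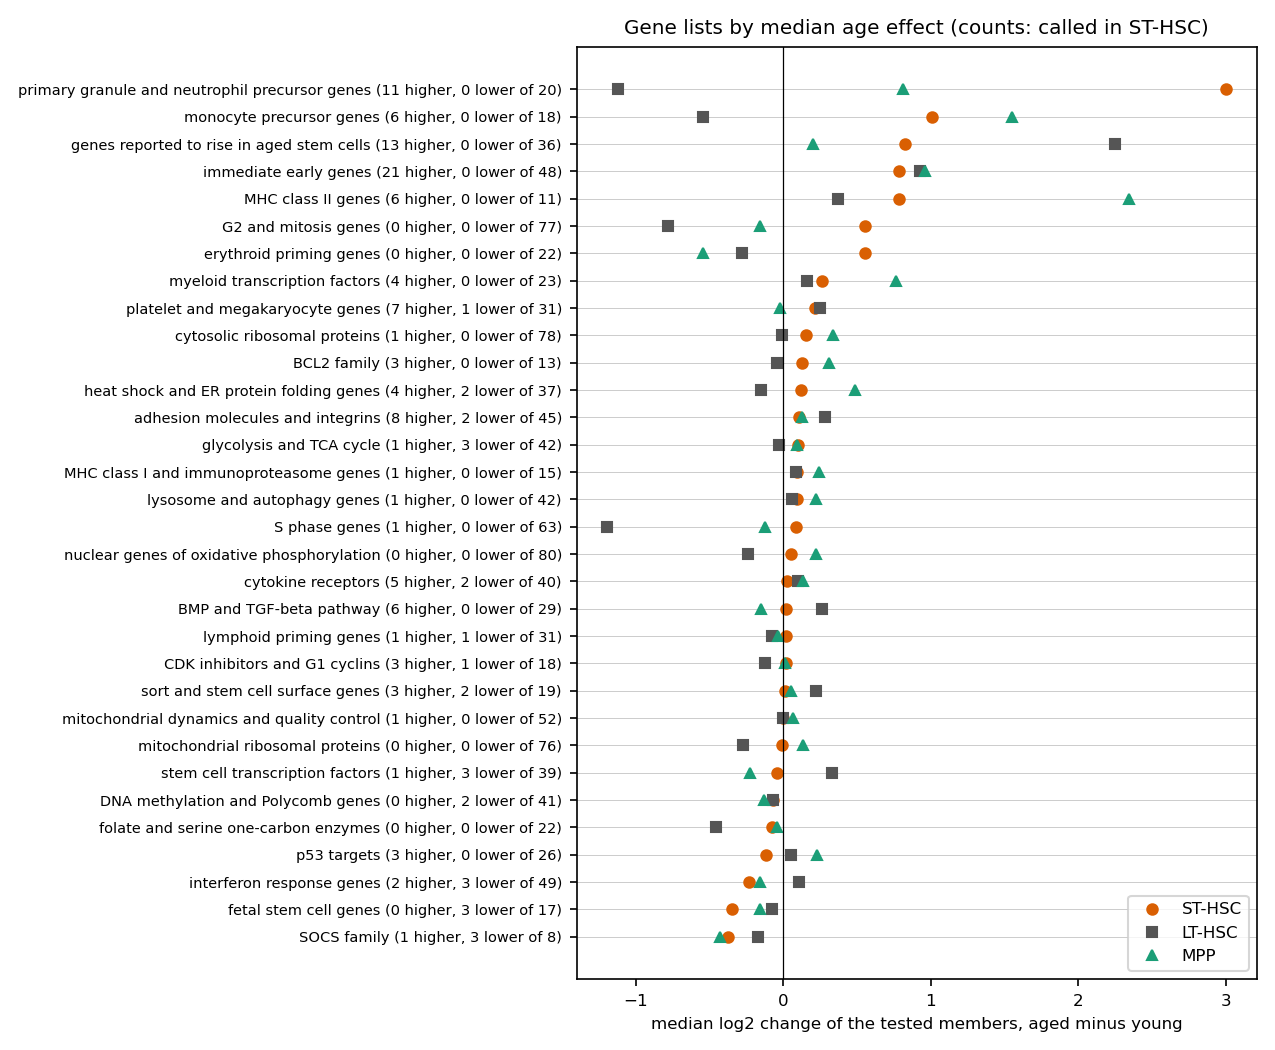
Median log2 change with age of the tested members of 32 gene lists (horizontal axis) in ST-HSC, LT-HSC and MPP, with the number of members that were higher or lower in ST-HSC beside each name. Granule and neutrophil precursor genes are highest in ST-HSC at 3.00 and at -1.12 in LT-HSC, and the SOCS family is lowest in ST-HSC at -0.376.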

How the data were processed

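RNA of the sorted cells was reverse transcribed with not-so-random primers and made into Nextera XT libraries, per the labels' protocols, so strand was not kept and no molecular identifiers were used. The deposited table holds whole-number read counts per gene symbol. Per the submitters' processing notes the authors' tools include Trim Galore, HISAT2 and featureCounts with build mm10. Of their versions, annotation and strand setting the sources used here say nothing. Reads of overlapping genes therefore cannot be told apart. Of the symbols, 27 are dates made by a spreadsheet and were named nowhere.

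Genes were filtered with filterByExpr, scaled with TMM and fitted with edgeR 4.0.16 (R 4.3.3; robust quasi-likelihood test, Benjamini-Hochberg adjustment) on all 24 libraries with 1 mean for each of 6 groups. Alternatives used DESeq2 1.42.0, limma 3.58.1 (voom), other scaling, no filter, only the groups compared, a replicate block and left-out libraries. The scripts were tested on simulated data. Counting intervals are exact at 95%.

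The members and gene lists were chosen with earlier results of these data known. Named genes were the sort genes, the 10 with the largest change and the 8 with the smallest p in each direction (adjusted p under 0.05, mean of at least 10 CPM, no overlap), up to 5 members of each list (up to 12 for small lists), and 6 in each direction per difference between populations; gene models and pseudogenes were otherwise passed over. Members named because a count was 5 or fewer, the marker genes, Skil, and Mx2, a pseudogene in RefSeq, were chosen after their values were seen. Start sites, promoters and gene positions came from RefSeq tables for GRCm38.p6, the assembly of mm10, and 14153 of 14205 tested symbols matched. Some results, including those of a few genes the rule names, are not reported here.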

Additional observations from a re-analysis of the deposited data

Results flagged for a closer look

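In groups of 4 libraries, 1 library stood apart from the other 3 in 16 of 256 pairs of a named gene and an age, by Dixon's test (the gap over the range, at its 95% value), and chance gives about 1 in 20. Aged library 1 stood apart with Ndn at 11.1 CPM (others 7.13 to 7.47) and Dld at 30.5 CPM (others 40.7 to 42.3). Aged library 2 stood apart with Abca4 at 24.8 CPM (others 34.6 to 36.2), Sdf2l1 at 29.6 CPM (others 14.1 to 16.6), Xbp1 at 75.8 CPM (others 66.2 to 67.4) and Cdkn2c at 21.5 CPM (others 14.9 to 15.7). Aged library 3 stood apart with Galnt6 at 344 CPM (others 309 to 315). Aged library 4 stood apart with Ndrg1 at 271 CPM (others 327 to 334). Young library 1 stood apart with Abca13 at 0.125 CPM (the others at 0). Young library 2 stood apart with Ptpn7 at 309 CPM (others 255 to 259), Wwtr1 at 0.218 CPM (the others at 0), Il1r1 at 56.3 CPM (others 84.6 to 89.8), Klf12 at 51.8 CPM (others 45.5 to 46.2) and Ucp2 at 457 CPM (others 376 to 384). Young library 3 stood apart with H2-Ab1 at 15.5 CPM (others 36.6 to 39.9). Young library 4 stood apart with Fcgr3 at 1.24 CPM (others 0 to 0.125). Among the summed counts of the 9 lists of markers, 3 were set apart. They were B and plasma cell markers at 0.0372% of counts in aged library 4 (others 0.00237% to 0.00317%), mature granulocyte markers at 0.0328% of counts in young library 4 (others 0.000221% to 0.000874%) and endothelial and stromal cell markers at 0.0482% of counts in young library 4 (others 0.0247% to 0.0271%). A gene of 0 counts in 3 young libraries, as Abca13 and Wwtr1, is set apart by a single count or a pair.

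The age effect of ST-HSC differed from that of LT-HSC in 41 of the named genes (edgeR's quasi-likelihood test of the difference, adjusted over all genes). It was more positive in ST-HSC, as log2 difference with adjusted p, for Slc28a2 1.87 (4.9e-07), Kcna3 1.85 (5.7e-07), Rfc2 1.18 (2.6e-06), Umps 1.18 (6.4e-06), Sdf2l1 3.15 (1.5e-05), Ptpn7 1.14 (1.7e-05) and Nkg7 3 (7.6e-05). The same direction held for Cd34 1.03 (4e-04), Flt3 1.12 (0.00091), Ucp2 0.684 (0.0011), Clec12a 8.45 (0.0019), Fcgr3 6.46 (0.01), Oxct1 0.842 (0.011) and C3 9.68 (0.022). Further genes of that direction were Ctsg 17.6 (0.023), Csf1r 4.18 (0.023), Ly6c2 15.3 (0.03), Mpeg1 3.86 (0.03), Vcam1 5.8 (0.035), Ms4a3 13.3 (0.037) and Rab44 5.92 (0.042). To these came Cd48 3.1 (0.044). It was more negative in ST-HSC, as log2 difference with adjusted p, for Gpr183 -3.52 (1.7e-10), Alcam -2.09 (2.5e-08), Enpp5 -1.73 (1.1e-06), Pfkfb3 -1.47 (2.3e-06), Fyb -1.47 (4.8e-06), Mycn -1.32 (0.00039) and Abca4 -1.36 (0.005). The same direction held for Plxdc2 -1.95 (0.0092), Selp -2.67 (0.0092), Cd53 -1.5 (0.011), Plag1 -1.46 (0.013), Itga6 -0.523 (0.015), Ndn -1.32 (0.017) and Igdcc4 -1.3 (0.032). Further genes of that direction were Tfcp2l1 -1.27 (0.04), Mpdz -1.97 (0.042), Phc3 -0.398 (0.042), Slco3a1 -0.441 (0.043) and Plek -1.44 (0.045). For Ctsg, Ly6c2, Ms4a3, C3 and Clec12a a group's counts were near 0 and the fitted values depend on the prior count.

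The age effect of ST-HSC differed from that of MPP in 16 named genes by the same test. It was more positive in ST-HSC, as log2 difference with adjusted p, for Abca4 1.53 (0.016), Dnajc6 0.744 (0.016), Arhgap29 1.77 (0.016), Tfcp2l1 1.72 (0.016), Mecom 0.658 (0.016), Wwtr1 7.65 (0.016) and Klf12 1.44 (0.016). The same direction held for Fhl1 1.25 (0.02) and Plag1 1.78 (0.028). It was more negative in ST-HSC, as log2 difference with adjusted p, for Tmem154 -1.97 (0.00018), Txndc5 -2.26 (8e-04), Trib1 -1.97 (0.00086), Xbp1 -1.67 (0.0017), Ell2 -1.9 (0.0063), Derl3 -3.15 (0.0063) and Socs2 -3.24 (0.031). Wwtr1 had 2 counts over the young ST-HSC libraries, so its fitted value depends on the prior count.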

How the results depend on the processing

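The count of 823 was 1156 by DESeq2, 821 by limma-voom, 824 with RLE size factors, 709 with no low count filter and 830 without 45S ribosomal RNA and hemoglobin genes. It was 534 in a fit to the ST-HSC libraries alone, 453 without aged libraries 2 and 3 and young LT-HSC library 1, and 433 without aged libraries 2 and 4, the last chosen after seeing the data. Leaving out 1 library at a time gave 503 to 713, fewest without young library 3. The 575 differences from LT-HSC became 944 by DESeq2, 897 without the 3 libraries, 335 without aged libraries 2 and 4, and 406 to 822 without 1 library. The 66 differences from MPP became 180 by DESeq2, 34 by limma-voom, 25 in the 2 populations alone, 24 without the 3 libraries, and 51 to 67 without 1 library. Fewer libraries enter the fits that leave some out; for the other settings the cause was not tested.

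Same-numbered aged and young ST-HSC libraries correlated by 0.00315 to 0.0877 in their deviations from the group mean, and 2 of 4 aged libraries correlated best with their own number. Against LT-HSC of the same age 3 of 4 aged libraries did (0.0199 to 0.101 for the same number) and 1 of 4 young ones (-0.019 to 0.122), and against MPP 1 of 4 at each age (0.011 to 0.13 aged, -0.0414 to 0.0701 young). The numbers were not taken as pairs. With a replicate block the counts were 818, 582 and 74, and with a block by age the differences were 590 and 70.

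Of 106 named genes that passed, 53 passed in all alternatives, 53 lost the call in at least 1, and none changed direction; limma-voom lost 16, DESeq2 none and the fit to the ST-HSC libraries alone 17. Leaving out 1 library lost 27. Among genes that did not pass, 8 changed sign. Without the 3 libraries the log2 change was 0.233 for Slamf1, -0.0987 for Alcam and -0.0771 for Mecom. Without aged libraries 2 and 4 it was -0.0298 for Cd34, 0.0352 for Flt3, 0.0154 for Gpr183 and -0.171 for Txndc5. Without 1 library it ran from -1.36 to 0.458 for Slamf1, -0.26 to 0.0264 for Ly6a, -0.0146 to 0.0801 for Cd34, -0.0928 to 0.0301 for Flt3, -0.0988 to 0.00903 for Gpr183 and -0.0539 to 0.165 for Txndc5. Depth limits Abca13 and Wwtr1, with 1 and 2 counts over the young libraries.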
